A study of Mus musculus with 12 samples.

Results

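The comparison asked what removal of the ovaries changed in the MaSC-enriched fraction of the mouse mammary gland, the sorted basal cells that hold mammary stem cells (MaSC) together with myoepithelial cells. It takes the samples whose titles name this fraction, 2 RNA samples from ovariectomized (Ovx) mice against 2 from control mice, which are 4 of the 8 RNA samples and 6 of the 12 arrays of the series. All cells came from female FVB/NJ mice, an inbred strain. Each Ovx RNA came from a pool of 6 mice whose ovaries were removed at 8 weeks of age and whose glands were collected 4 weeks later. Both control RNAs came from separate pools, for which the labels give no age, number of mice or sham operation. Glands were digested, cells carrying CD45, CD31 or TER119 (surface markers of blood and endothelial cells) were gated out, and CD29hi CD24+ cells were sorted as the MaSC-enriched fraction. The CD29lo CD24+ luminal cells sorted from the same pools, control and Ovx, serve here to estimate the spread and to set effects side by side.

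The mammary epithelium has an inner layer of luminal cells, which make milk, and an outer basal layer of contractile myoepithelial cells that lie on the basement membrane and squeeze milk out. Cells able to regrow a mammary gland after transplantation lie in the basal layer. Ovarian oestrogen and progesterone drive growth of the gland, and their receptors are known mainly from a subset of luminal cells, which reach basal cells through secreted factors such as RANK ligand and Wnt proteins. Caseins and whey proteins are best known from luminal cells of the pregnant and lactating gland, where prolactin acts through the transcription factor Stat5.

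Levels are log2 bead intensities after background correction and quantile normalization, so that a difference of 1 is a 2-fold difference. Of 45281 probes 20995 were tested, those detected (mean detection p under 0.05) in at least 2 of the 8 RNA samples, and the brightest of them stands for each of 11292 genes. The array of control replicate 1 detected 12994 probes, against 17705 to 18903 on the other arrays of the series, and its lowest detected signal (the detection floor) was 7.29 on the log2 scale, against 5.73 to 5.93. The 2 control samples also lay further apart than the 2 Ovx samples, with a median absolute log2 difference of 0.68 against 0.43 over the tested probes. Of the 9 tested basal and myoepithelial markers all 9 lay above every luminal sample in all 4 MaSC-enriched samples, and 7 of 9 tested luminal markers lay below, the exceptions being Krt8 and Gata3. The labelled fraction therefore carried its defining markers. With 2 pools a side the smallest p an exact permutation test can give is 0.333, so the tests rest on the spread that limma shares across probes and across the 4 groups. In a sorted bulk sample, fewer cells of a kind and less RNA per cell cannot be told apart.

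Csn2, a casein gene, was the only named gene called lower, and its promoter is printed with that of Csn1s1, the casein with the next smallest p, because the letters of a Stat5-type motif occur in both. The sequences are the 250 bases before the RefSeq start of each gene in GRCm38.p6, read 5′ to 3′ on the gene's strand, with the motif TTCNNNGAA in capitals. The motif reads the same on both strands. The reference is C57BL/6J, not the FVB/NJ strain of these mice.
Csn2, chr5:87699426-87699675, minus strand: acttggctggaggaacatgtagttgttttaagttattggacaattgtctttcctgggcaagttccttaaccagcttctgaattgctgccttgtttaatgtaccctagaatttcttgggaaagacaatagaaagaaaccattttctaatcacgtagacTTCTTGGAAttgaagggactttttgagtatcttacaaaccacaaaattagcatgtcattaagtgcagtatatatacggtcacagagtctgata
Csn1s1, chr5:87665958-87666207, plus strand: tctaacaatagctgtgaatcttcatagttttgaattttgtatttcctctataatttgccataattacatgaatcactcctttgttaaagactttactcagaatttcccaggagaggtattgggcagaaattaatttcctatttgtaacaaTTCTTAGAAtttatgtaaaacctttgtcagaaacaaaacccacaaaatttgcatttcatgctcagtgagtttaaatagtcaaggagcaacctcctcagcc
Counted from the start, the motif lay at −93 to −85 in Csn2 and at −100 to −92 in Csn1s1. Among 13 milk genes with a RefSeq promoter, 3 (23.1%) held it, the other being Glycam1, against 2197 of 27025 promoters of all genes (8.13%). A match of letters is no evidence of binding.

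Ovx and control MaSC-enriched cells differed past an adjusted p of 0.05 (limma) at 16 of 20995 probes (0.0762%), 14 higher in Ovx cells (0.0667%) and 2 lower (0.00953%), and 1811 (8.63%) had an unadjusted p under 0.05. Represented by the brightest probe, 7 of 11292 genes were called higher (0.0620%) and 1 lower (0.00886%). Counting every probe, the calls name 10 genes higher (Trim9, Nrcam, Wfikkn2, Lep, Brinp1, Frmpd4, Lrrn2, Ankrd1, Ntn4 and Jhy) and Csn2 lower, while 5 called probes have no symbol in the annotation. On their called probes the 10 named genes that rose were dim in both control samples, detected on at most 2 of 3 control arrays, and were detected on all 3 Ovx arrays.

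Trim9, a ubiquitin ligase known from neurons, read 5.43 and 5.46 in the control samples and 10.55 and 11.02 in the Ovx samples. No control array detected it and all 3 Ovx arrays did, a rise of at least 18.9-fold (log2 change 5.34, SE 0.30, adjusted p = 0.00617). No other probe had a smaller p. Nrcam, a cell adhesion molecule of neurons, read 5.88 and 5.58 against 10.69 and 11.14 (log2 change 5.18, SE 0.34, adjusted p = 0.0102). It was detected on 1 of 3 control arrays, and with undetected arrays set to their floor the difference was 19.5-fold. A dimmer Nrcam probe read 5.01 and 4.97 against 8.15 and 7.40 and missed the threshold (adjusted p = 0.0516). Both probes thus placed both Ovx samples above both control samples.

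Ankrd1, a muscle ankyrin repeat protein and a known target of the Hippo pathway, was called through a probe that read 5.59 and 5.06 in control and 9.93 and 11.07 in Ovx cells, at least 15.5-fold higher (adjusted p = 0.0146). Its brighter probe read 9.01 and 6.72 against 12.27 and 12.17, with a log2 change of 4.35 and an adjusted p of 0.116. Ntn4, the basement membrane protein netrin-4, read 5.66 and 5.64 against 8.81 and 9.91 on its called probe, at least 7.03-fold higher (adjusted p = 0.0456). On its brighter probe it read 7.32 and 6.19 against 9.17 and 10.05 (adjusted p = 0.116). Jhy, a regulator of cell junctions and cilia, showed the same pattern, at least 5.58-fold higher on the called probe (adjusted p = 0.0458) and at 0.19 on the brighter one. For all 3 genes the groups did not overlap on either probe.

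Wfikkn2, a secreted inhibitor that binds myostatin, read 6.50 and 5.80 against 9.63 and 10.03 (9.28-fold with floors in place, adjusted p = 0.0226), while another Wfikkn2 probe gave a log2 change of −1.12. Frmpd4, a scaffold protein of dendritic spines, read 5.56 and 6.34 against 9.37 and 9.72 (6.62-fold, adjusted p = 0.0291). Lrrn2, a leucine-rich repeat protein of neurons, read 6.81 and 6.47 against 9.86 and 9.53 (7.04-fold, adjusted p = 0.0458). Each of these 3 genes was detected on all 3 Ovx arrays and on 1 or 2 of the 3 control arrays. Brinp1, a neural protein inducible by BMP and retinoic acid, read 5.41 and 5.52 against 8.39 and 8.30 (3.39-fold, adjusted p = 0.0226). Lep, which encodes the fat cell hormone leptin, read 5.77 and 5.73 against 9.84 and 11.20, at least 15.7-fold higher (log2 change 4.77, SE 0.45, adjusted p = 0.0226). Of the probes without a symbol, 4 were higher and 1 was lower in Ovx cells, the last falling from 10.90 and 12.61 to 4.90 and 4.96, at least 60.0-fold.

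**Figure D1:**
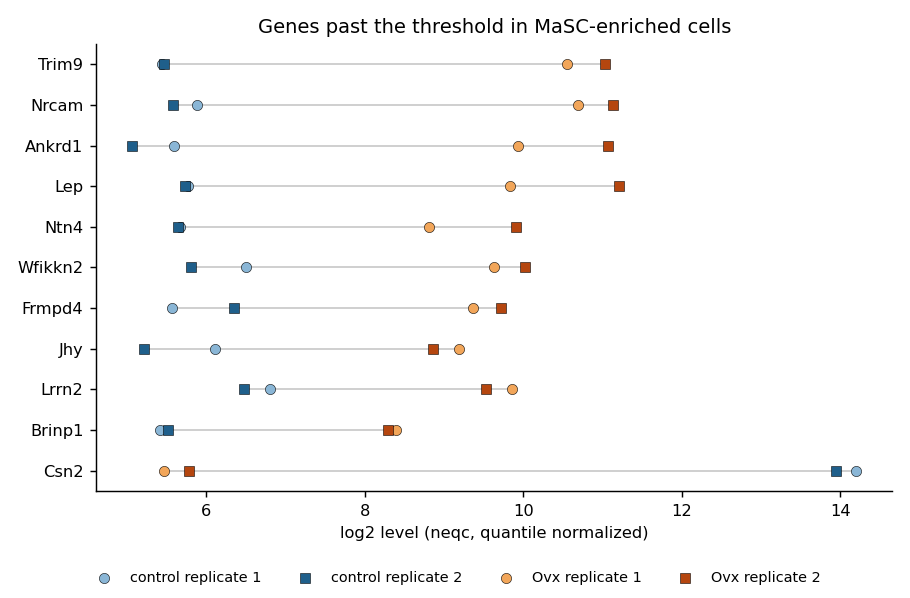
Log2 level (x axis) of the 11 called probes that carry a gene symbol, by gene, in the 4 MaSC-enriched samples; each point is 1 RNA sample and the grey line spans the samples. Trim9 sits at 5.43 and 5.46 in control and at 10.55 and 11.02 in Ovx cells, and Csn2 runs the other way, from 14.20 and 13.95 to 5.46 and 5.78.

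These calls depended on which samples were in the fit. No probe passed without Ovx replicate 2 (1509 had an unadjusted p under 0.05) and 7 passed without Ovx replicate 1, while leaving out a control sample raised the count, to 76 without control replicate 1 and to 583 without control replicate 2. All 16 probes were among the calls in both of the last fits. Without any 1 luminal sample 2 probes passed, and with the MaSC-enriched samples alone none did (1025 had an unadjusted p under 0.05). Both beadchips held MaSC-enriched RNA: within beadchip 1, with 1 array for each of the 4 samples, no probe passed (1059 with an unadjusted p under 0.05), and with all 12 arrays and the beadchip as a block 81 did. With scaling of array medians in place of quantile normalization none passed (1800 with an unadjusted p under 0.05). Of 24 other settings, Trim9 lost its call in 4, Nrcam in 6, Csn2 in 8, Frmpd4 in 10, Lep and Wfikkn2 in 11, and Brinp1 and Lrrn2 in 12. The called probes of Ankrd1, Jhy and Ntn4 lost theirs in 8, 11 and 14 of 23.

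Below the threshold, the genes with the smallest p among those whose groups did not overlap included genes of varied function. Such separation is common here: for 4157 probes (19.8%) both Ovx samples lay above both control samples and for 2615 (12.5%) below, and for genes the counts were 2406 (21.3%) and 1534 (13.6%). Ptprz1, a receptor phosphatase that binds pleiotrophin, read 7.70 and 6.79 in control and 10.56 and 10.87 in Ovx cells (log2 change 3.46, adjusted p = 0.0515). Nox4, an NADPH oxidase that makes hydrogen peroxide, was detected on all 6 arrays, at 9.59 and 9.02 against 12.32 and 12.63 (log2 change 3.17, adjusted p = 0.0656). Lrrtm1, an organizer of synapses, read 5.15 and 5.36 against 7.51 and 7.66, at least 2.06-fold higher (adjusted p = 0.0516). Unlike Nox4, it was seen on no control array. Further up in Ovx cells were the PDZ protein gene Pdzd3 (log2 change 2.52), the transcriptional regulator Sertad3 (2.50), the ubiquitin ligase gene Sh3rf2 (2.82), Thsd7a (2.12) and the helix-loop-helix factor gene Atoh8 (2.01), with adjusted p between 0.0647 and 0.0726. Uts2b, which encodes a urotensin peptide, had one of the widest gaps, at 4.95 and 6.56 against 8.96 and 10.66 (adjusted p = 0.121), as did Enkur (log2 change 3.17, adjusted p = 0.123) and the membrane protein gene Xkr4 (2.91, adjusted p = 0.086).

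Lower in Ovx cells, again without passing, were genes of several functions. Kcp, a secreted modulator of BMP signalling, read 7.65 and 7.76 in control and 5.24 and 5.33 in Ovx cells, at least 3.62-fold lower (adjusted p = 0.0516). Bcl2l15, a member of the Bcl2 family, read 9.43 and 9.52 against 5.72 and 5.76 (log2 change −3.74, adjusted p = 0.0558). Fst, which encodes the activin antagonist follistatin, read 13.13 and 13.27 against 10.48 and 10.99 (log2 change −2.46, SE 0.36, adjusted p = 0.0901). For these 3 genes the control samples lay close together. The neuronal kinesin motor Kif1a (log2 change −2.39), the delta-catenin gene Ctnnd2 (−3.13) and Emid1 (−2.77) each had an adjusted p of 0.0656. Of innate defence genes, the calprotectin subunit S100a8 read 9.66 and 9.20 against 5.56 and 5.49 (adjusted p = 0.0925) and the acute-phase protein gene Saa1 8.34 and 8.88 against 5.57 and 5.28, at least 6.79-fold lower (adjusted p = 0.114). The collagen IX chain Col9a1 (log2 change −4.23), the transporter-like gene Mfsd13a (−2.67), the phosphatase subunit Ppp2r2b (−2.10), the hormone gene Sct (secretin, −2.28) and the serine protease gene Prss12 (−2.32) had adjusted p between 0.0704 and 0.115. Wide gaps with a large spread were seen for Serpinb11, a serpin, at 8.91 and 13.94 against 4.996 and 4.84 (at least 47.6-fold, adjusted p = 0.259), and for Tnfrsf18, a receptor of the TNF family, at 8.37 and 10.35 against 5.50 and 5.96 (adjusted p = 0.123). The connexin gene Gjb2 (log2 change −3.20, adjusted p = 0.121), the Wnt-induced matricellular gene Ccn4 (−3.17, adjusted p = 0.206) and the neuropeptide gene Npw (at least 8.45-fold, adjusted p = 0.121) were also below both control samples.

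Milk protein and secretion genes lay mostly lower in Ovx cells. Of 22 genes on the list 19 were tested, 1 was called lower and none higher, and 12 lay below both control samples and 1 above, against 13.6% and 21.3% of all genes. The median log2 change was −1.28, against 0.07 over all genes. Csn2, which encodes beta-casein, read 14.20 and 13.95 in the control samples and 5.46 and 5.78 in the Ovx samples (log2 change −8.46, SE 0.64, adjusted p = 0.0113). Only 1 of 3 Ovx arrays detected it, and with undetected arrays at their floor the difference was 296-fold. Csn1s1, alpha-S1-casein, read 14.47 and 14.06 against 10.58 and 10.41 (log2 change −3.77, adjusted p = 0.0516), so that it stayed well above the floor in Ovx cells. Wap, whey acidic protein, read 8.15 and 8.55 against 4.84 and 4.96, at least 5.66-fold lower (adjusted p = 0.131), and was detected on no Ovx array. Cel, the bile salt-stimulated lipase of milk, read 10.23 and 8.12 against 7.01 and 5.96 (log2 change −2.69, adjusted p = 0.287).

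Further milk genes were chosen after their values were seen, and none of them passed. Csn3, kappa-casein, which coats the casein micelle, read 14.93 and 14.05 against 14.74 and 13.72 (log2 change −0.26), with overlapping groups. The acidic whey protein gene Wfdc18 read 12.82 and 13.13 against 11.38 and 8.79, and the lipid droplet coat gene Plin2 10.26 and 9.95 against 8.78 and 8.55. Glycam1 read 6.12 and 10.41 against 4.98 and 5.55, so 1 control sample carried most of its difference. The exceptions in direction were Csn1s2b and Ltf, lactoferrin. Csn1s2b lay above both controls, at 6.55 and 7.06 in Ovx against 5.64 and 6.08 in control cells. Ltf read 14.31 and 12.12 in Ovx against 12.23 and 9.51 in control cells, with overlapping groups. Against control replicate 1 alone the list's median change was −1.13 and against control replicate 2 alone −0.18, so its size rested on the first of these samples, while the values of Csn2, Csn1s1 and Wap were close in both. Within beadchip 1, 9 of the 19 lay below both controls. Luminal markers, which would accompany luminal cells in the sort, were set beside these values. The summed log2 level of 21 tested markers of 26 was 207 and 190 in control and 216 and 192 in Ovx cells. Of them 16 were detected on all 6 arrays, and 2 lay above and 0 below both controls (9.52% and 0%, against 21.3% and 13.6% of all genes). The part of luminal cells in the milk gene changes was not tested.

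Contractile and smooth muscle genes, the products of myoepithelial cells, lay mostly higher in Ovx cells. For comparison, 21.3% of all genes lay above and 13.6% below both controls, and 6257 of 11292 had a positive change. Of 24 genes 21 were tested and none passed (5 with an unadjusted p under 0.05), but 20 had a positive change and 15 lay above both control samples, none below, with a median log2 change of 0.62. Cnn1, calponin, read 5.76 and 6.25 in control and 7.77 and 8.44 in Ovx cells (log2 change 2.10, SE 0.35, adjusted p = 0.121). Lmod1, leiomodin, which nucleates actin filaments, read 8.68 and 8.12 against 10.20 and 10.25 (log2 change 1.82, adjusted p = 0.153). Tagln, the actin-binding protein transgelin, read 11.54 and 11.14 against 12.36 and 12.51 (log2 change 1.09, adjusted p = 0.32). In these 3 genes both Ovx samples lay above both controls. Mrvi1, a substrate of the cyclic GMP pathway in smooth muscle, read 11.68 and 10.51 against 12.54 and 12.28 (adjusted p = 0.405). Of members chosen after their values were seen, the smooth muscle myosin gene Myh11 read 14.29 and 13.52 against 14.67 and 14.53, the myosin light chain gene Myl9 13.83 and 13.84 against 14.44 and 14.62, and the tropomyosin gene Tpm2 14.08 and 13.88 against 14.59 and 14.76.

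Acta2, smooth muscle actin and the usual marker of these cells, read 14.68 and 14.70 in control and 14.71 and 14.63 in Ovx cells on its brightest probe (log2 change −0.02, SE 0.28). A dim Acta2 probe read 6.79 and 6.83 against 8.72 and 9.18 (log2 change 2.13, adjusted p = 0.0824), whereas the other 3 bright probes changed by −0.12 to 0.26. Probes of this gene thus disagreed. The contractile list's median was 0.43 against control replicate 1 and 0.69 against control replicate 2, and 15 members lay above both controls within beadchip 1 as well. Pericytes share many contractile genes, and their markers were set beside this list. Of 12 tested pericyte markers 4 lay above both controls and none below, and 9 of the 12 were detected on all 6 arrays. Their summed log2 level was 111 and 101 in control and 118 and 110 in Ovx cells, so the groups overlapped. The pericyte median was 0.13 against control replicate 1 and 1.06 against control replicate 2. Over all genes the shares above and below were 21.3% and 13.6%. The part of pericytes in the result was not tested. The CArG box, the motif bound by serum response factor, was found in 3 of 17 contractile promoters of the same length (17.6%; Myl9, Srf and Vcl) and in 439 of 27025 of all genes (1.62%), with both strands searched, and in none of the 13 milk promoters. The Stat5-type motif printed for Csn2 and Csn1s1 was in none of the 17 contractile promoters.

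**Figure D2:**
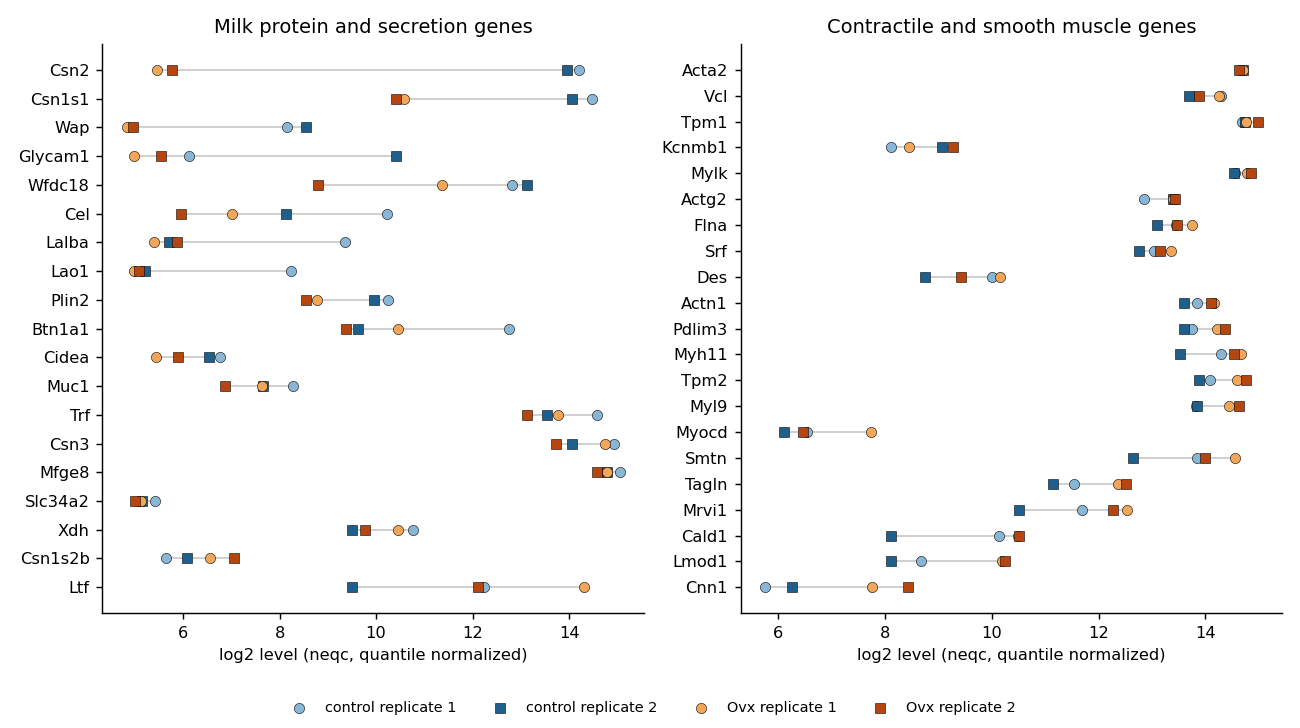
Log2 level (x axis) of every tested milk protein and secretion gene (left) and contractile gene (right) in the 4 MaSC-enriched samples, 1 point per RNA sample, with genes ordered by their log2 change. Csn2, Csn1s1 and Wap have both Ovx samples far below both controls, whereas 15 of the 21 contractile genes have both Ovx samples above, by small steps.

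Laminins and basement membrane genes, which form the sheet the basal cells rest on, lay lower in Ovx cells, though under scaling of array medians in place of quantile normalization the list's median turned to 0.31. That scaling moved the median of all probes to 0.61, and relative to it the list lay at −0.30. Under the main settings 19 of 22 genes were tested and none passed (1 with an unadjusted p under 0.05). Below both controls lay 10 (8 within beadchip 1) and above them 1, against 13.6% and 21.3% of all genes. The median log2 change was −0.48. Smoc1, a matricellular protein of basement membranes, read 8.87 and 7.59 in control and 6.03 and 5.89 in Ovx cells (log2 change −2.28, adjusted p = 0.162). Lama4, a laminin chain of vessels, read 8.54 and 6.01 against 5.67 and 5.82 (adjusted p = 0.633), the difference coming from control replicate 1. The laminin gamma chain gene Lamc1 (log2 change −0.60) and the collagen IV chain Col4a5 (−0.56) differed by less than 1 unit, and both turned positive under that scaling, at −0.35 and −0.34 relative to all probes. The collagen IV chains Col4a1, at 14.45 and 14.72 against 13.92 and 13.55, and Col4a2, at 13.98 and 14.32 against 13.38 and 13.07, were chosen after their values were seen. Of fibrillar collagens and other matrix genes, 27 were tested, 11 lay above and 6 below both controls and none passed (3 with an unadjusted p under 0.05). Postn, the matricellular protein periostin, read 5.22 and 5.20 against 6.84 and 6.97, at least 1.28-fold higher (adjusted p = 0.113), and the matricellular gene Ccn1 11.47 and 11.62 against 13.17 and 12.96 (log2 change 1.52, adjusted p = 0.376). Elastin (Eln, log2 change 1.11) was higher and fibulin-2 (Fbln2, −1.64) lower. Among 17 tested proteases and inhibitors, 8 above and 2 below, the metalloproteinase inhibitor Timp1 read 10.60 and 11.35 against 9.10 and 8.85 (log2 change −2.00, adjusted p = 0.123). Its relative Timp4 lay higher (1.72, adjusted p = 0.336), as did the proteases Mmp11 (1.76, adjusted p = 0.213) and Adamts1 (1.11, adjusted p = 0.531).

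Ovarian hormone receptors were measurable only in part. Esr1, oestrogen receptor alpha, read 8.50 and 7.44 in control and 9.57 and 9.05 in Ovx cells (log2 change 1.34, adjusted p = 0.518). A dimmer Esr1 probe changed by −1.11, so the probes disagreed in sign. Pgr, the progesterone receptor, was at the floor, at 5.35 and 5.79 against 5.24 and 5.75, and was detected on 1 of 3 arrays in each group. Of 24 tested nuclear receptor genes 9 lay above and 3 below both controls, against 21.3% and 13.6% of all genes. The retinoic acid receptor genes Rarb, at 5.35 and 5.29 against 6.69 and 6.87, and Rara, at 5.16 and 5.36 against 6.65 and 6.62, were detected on no control array and on all 3 Ovx arrays (adjusted p = 0.266 and 0.359). Their Ovx levels lay under the detection floor of control replicate 1 (7.29). That array could therefore not have detected them even at the Ovx level. The clock repressor Nr1d1 (log2 change 1.35, adjusted p = 0.386) and the orphan receptor Nr2f2 (1.34, adjusted p = 0.466) followed.

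Genes known to be induced by steroid hormones did not move one way, with a median of −0.03. Of 23 tested, 4 lay above and 4 below both controls, against 21.3% and 13.6% of all genes. Fkbp5, a chaperone partner induced by progesterone and glucocorticoids, read 8.00 and 8.67 in control and 6.38 and 6.43 in Ovx cells (log2 change −1.93, adjusted p = 0.266). Ccnd1, cyclin D1, read 12.91 and 13.56 against 12.50 and 11.66 (log2 change −1.15, adjusted p = 0.478), and the NF-kappaB inhibitor gene Nfkbia read 14.14 and 14.22 in Ovx cells against 13.62 and 12.61 in control cells (adjusted p = 0.498). Tnfsf11, RANK ligand, was dim in this fraction, at 6.42 and 6.65 against 5.58 and 5.79 (log2 change −0.85). Its receptor gene Tnfrsf11a read 9.28 and 7.12 against 10.45 and 9.12, with overlapping groups (adjusted p = 0.635). Of 12 tested RANK pathway genes none lay above both controls and 4 lay below.

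Wnt pathway genes differed in both directions, and none passed (an unadjusted p under 0.05 in 3 ligands, 7 receptors and 3 inhibitors). Of 23 ligand genes 10 were tested, 2 above and 3 below both controls, against 21.3% and 13.6% of all genes. Wnt7b read 5.98 and 6.75 in control and 9.22 and 8.36 in Ovx cells (log2 change 2.43, adjusted p = 0.19), and Wnt11 5.76 and 5.55 against 7.30 and 7.04, at least 1.54-fold higher (adjusted p = 0.153). Wnt10a (log2 change −1.56) and Wnt6 (−1.28) were lower, and Wnt4, the ligand induced by progesterone in luminal cells, read 6.78 and 6.70 against 7.92 and 6.77. Of 15 tested receptors and co-receptors 6 lay above and 4 below. Fzd7, a Frizzled receptor studied in mammary stem cells, read 12.23 and 11.19 against 13.44 and 13.44 (log2 change 1.73, adjusted p = 0.242). Fzd2 read 5.55 and 6.24 against 7.91 and 7.68 (1.90, adjusted p = 0.143) and Lgr5, an R-spondin receptor and stem cell marker, 9.49 and 8.68 against 10.26 and 11.37 (1.73, adjusted p = 0.33). Fzd8 was also higher (1.38), whereas Ror2, a receptor of non-canonical Wnt signals, was lower (−1.56, adjusted p = 0.32).

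Of secreted Wnt inhibitors 5 of 13 were tested, and each of the 5 had groups that did not overlap, 2 above and 3 below. Sfrp1, which binds Wnt proteins, read 11.19 and 10.49 in control and 13.48 and 13.37 in Ovx cells (log2 change 2.58, adjusted p = 0.164), with a second probe at 10.86 and 10.16 against 13.11 and 12.85. Sostdc1, which binds BMP and Wnt co-receptors, read 9.81 and 11.58 against 7.50 and 8.54 (log2 change −2.68, adjusted p = 0.243). Dkk3 lay higher (1.21) and Sfrp2 lower, at 7.20 and 7.97 in Ovx against 8.63 and 8.53 in control cells. The inhibitors thus did not share a direction. Axin2, the standard readout of beta-catenin signalling, read 8.87 and 8.38 against 9.04 and 8.57 (log2 change 0.18), and the feedback inhibitor Nkd2 10.15 and 11.01 against 7.81 and 8.66 (−2.34, adjusted p = 0.221). Of 11 tested beta-catenin targets 3 lay above and 4 below both controls, against 21.3% and 13.6% of all genes.

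**Figure D3:**
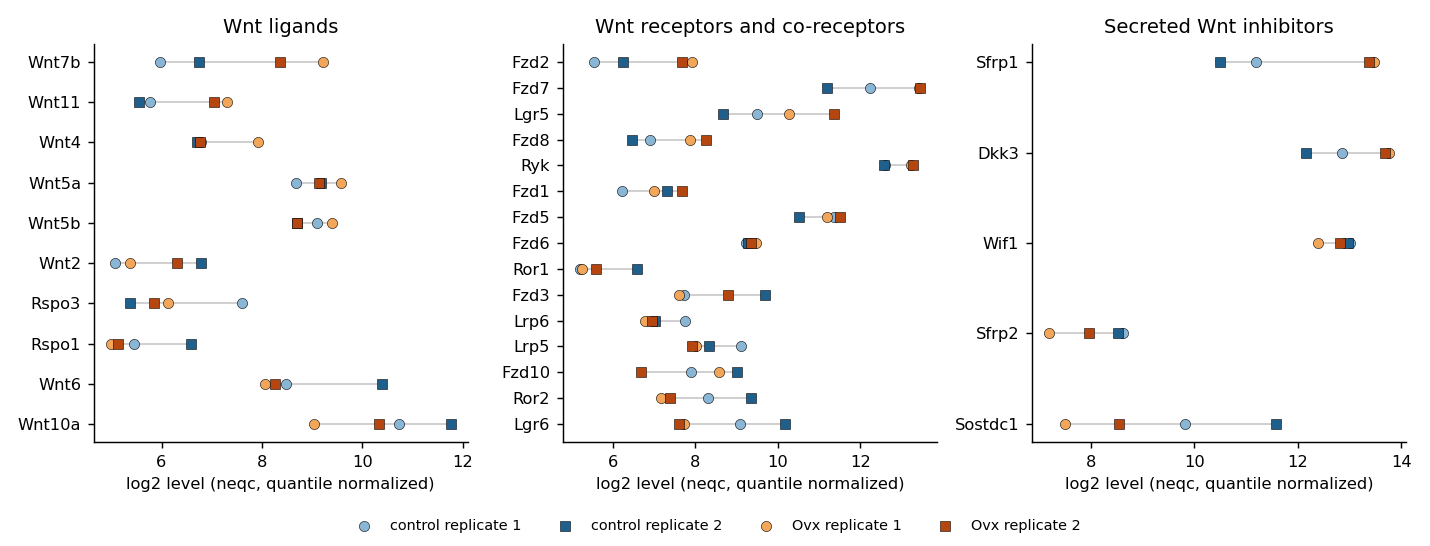
Log2 level (x axis) of the tested Wnt ligands, Wnt receptors and co-receptors, and secreted Wnt inhibitors in the 4 MaSC-enriched samples, 1 point per RNA sample, ordered by log2 change. Wnt7b, Fzd2, Fzd7 and Sfrp1 have both Ovx samples above both controls, and Sostdc1, Ror2 and Wnt10a have both below.

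Other signalling lists are set beside the shares over all genes, of which 21.3% lay above and 13.6% below both controls. In the Notch pathway 14 of 16 tested genes had a positive change, against 6257 of 11292 genes in all. Above both controls lay 5 and none below, and none passed (1 with an unadjusted p under 0.05). The median was 0.50, but 0.30 against control replicate 1 and 0.99 against control replicate 2. The Notch target genes Hey2, at 5.45 and 5.26 against 6.92 and 6.22 (adjusted p = 0.347), Heyl (log2 change 0.79) and Nrarp (0.93) and the glycosyltransferase gene Mfng (0.89) had the smallest p of that list. BMP and TGF-beta genes gave 4 above and 3 below of 24, the lower ones including Fst and Bmp7 (log2 change −1.39). For the IGF family the counts were 2 and 1 of 13, with the binding protein Igfbp3 at −1.25, and for the EGF family 2 and 3 of 10.

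Basal identity genes were bright in all 4 samples. Krt14 read 14.87 and 14.51 in control and 14.76 and 14.36 in Ovx cells, Krt5 11.91 and 12.68 against 12.77 and 13.19, and Trp63, the basal regulator p63, 13.08 and 13.17 against 13.52 and 13.56. None of these 3 changed by more than 0.68 on the log2 scale. The keratin Krt15, known from basal cells of other epithelia, read 10.81 and 13.34 against 8.60 and 9.18 (log2 change −3.18, adjusted p = 0.293). Bcl11a, a transcription factor of mammary stem and progenitor cells, was higher (1.58, adjusted p = 0.381), as was Tbx3 (1.40, adjusted p = 0.557). Bcl11a levels were 6.99 and 7.80 in control and 8.63 and 9.31 in Ovx cells. In all, 10 of 23 tested basal lineage genes lay above and 4 below both controls, against 21.3% and 13.6% of all genes. Of 21 tested integrin and hemidesmosome genes 8 lay above and 4 below, among them Itga1 (1.29) higher, and the anchoring fibril collagen Col7a1 (−1.51), Cd44 (−0.76, but 0.087 under scaling of array medians, where it was −0.52 relative to all probes) and Itgb3 (−1.81, at least 3.01-fold lower) lower.

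Proliferation genes separated 1 control sample from the other 3 MaSC-enriched samples. The mean log2 level of 27 tested mitosis genes was 10.16 in control replicate 2, against 6.58 in control replicate 1 and 6.30 and 6.54 in the Ovx samples. For 30 tested DNA replication genes it was 9.78 in control replicate 2, against 7.59, 7.26 and 7.56. The median change of the mitosis list was therefore −4.12 against control replicate 2 and −0.08 against control replicate 1. That of DNA replication was −2.53 and −0.05. The detection floor of control replicate 1 was 7.29, above its mitosis mean and below its DNA replication mean. How closely this sample resembled the Ovx samples was therefore not resolved for genes under that floor. Mcm10, a DNA replication factor, read 8.40 and 10.17 in control and 6.13 and 6.64 in Ovx cells (log2 change −2.90, adjusted p = 0.466). The flap nuclease gene Fen1 read 10.79 and 11.80 against 9.43 and 9.83, the centromeric histone gene Cenpa 10.30 and 13.38 against 9.33 and 9.02, and the mitotic regulator Cdca3 8.58 and 10.99 against 7.11 and 6.23. These genes lay below both controls, and by less against the first. Uhrf1, a maintenance factor of DNA methylation, Mcm6, a subunit of the replication helicase, Cdca8, of the chromosomal passenger complex, and Nuf2, of the kinetochore, had log2 changes of −2.81, −2.45, −3.40 and −1.98. Pcna, the sliding clamp, read 8.01 and 9.08 against 7.74 and 9.42. No member of either list passed (4 and 2 with an unadjusted p under 0.05). Below both controls lay 12 of 30 and 13 of 27, and none above, against 13.6% and 21.3% of all genes. In luminal cells the median change was −1.51 for DNA replication and −2.66 for mitosis. There Cdca3 read 11.58 in the control from the pool of control replicate 2 and 8.13 in the other control. In luminal Ovx cells it read 6.92 and 7.21. Whether the lists followed the mouse pool was not tested.

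**Figure D4:**
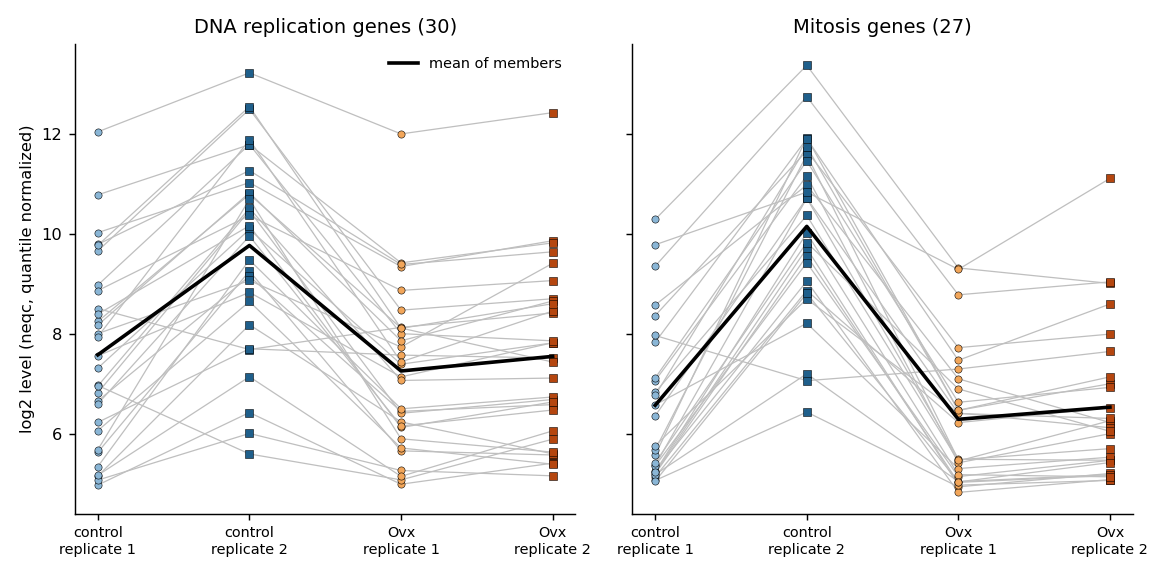
Log2 level (y axis) of each tested DNA replication gene (left) and mitosis gene (right) in the 4 MaSC-enriched samples; each grey line is 1 gene and the black line the mean. Control replicate 2 stands at means of 9.78 and 10.16, and the other 3 samples lie between 6.30 and 7.59. The detection floor of control replicate 1 is 7.29.

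Immediate early and heat shock genes, which respond within minutes to handling and stress as well as to growth factors, lay higher in Ovx cells mostly against the same sample. Of 26 tested 14 lay above both controls and 1 below, against 21.3% and 13.6% of all genes. None passed (3 with an unadjusted p under 0.05), and the median change was 0.14 against control replicate 1 and 1.18 against control replicate 2. Myc read 9.92 and 8.60 in control and 10.11 and 11.02 in Ovx cells, Hspb1 13.20 and 12.65 against 14.01 and 13.88, Hspa1b 8.46 and 7.72 against 8.86 and 10.16, and Btg2 5.30 and 5.14 against 6.90 and 6.38. Cholesterol synthesis genes showed 3 of 18 below both controls, with a mean log2 level of 7.88 and 9.14 in control and 7.97 and 8.28 in Ovx cells, and under scaling of array medians the sign of their median turned (0.15, or −0.45 relative to all probes, against −0.42 under the main settings). Milk genes had the reverse dependence, and the contractile, adipocyte and basement membrane lists moved the same way against both.

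**Figure D5:**
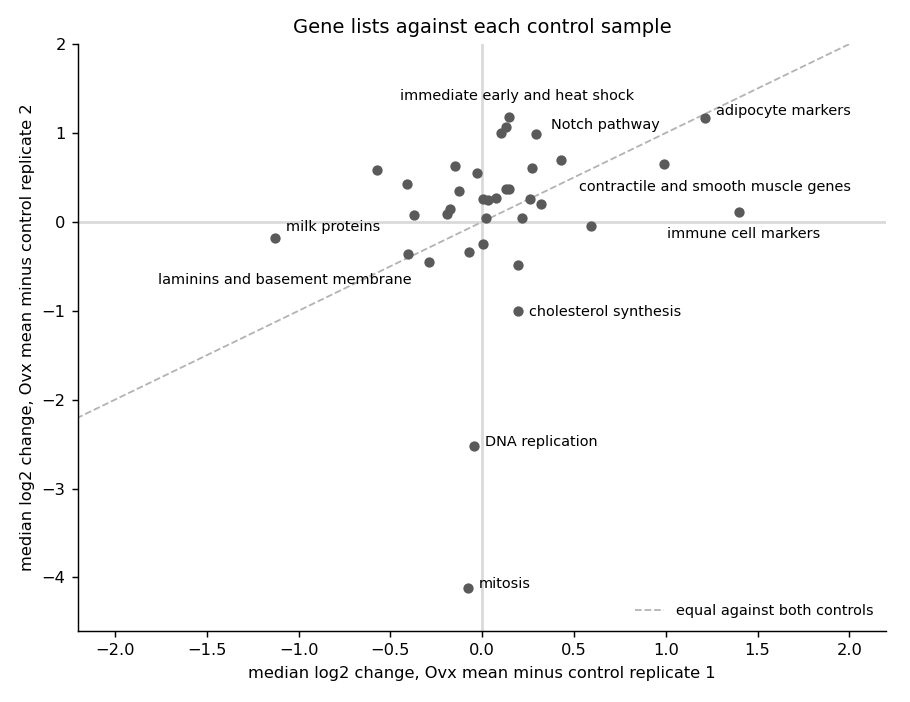
Median log2 change of each of the 36 gene lists, the Ovx mean minus control replicate 1 (x axis) against the Ovx mean minus control replicate 2 (y axis); 1 point per list, and the dashed line marks equal change. Mitosis (−0.08 and −4.12) and DNA replication (−0.05 and −2.53) lie far below 0 against control replicate 2 and near 0 against control replicate 1, while adipocyte markers (1.21 and 1.16) lie near the dashed line, as do laminins and basement membrane (−0.29 and −0.46; the sign of that list's median turns under scaling of array medians, where it is −0.30 relative to all probes).

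Genes of neurons and axon guidance were well represented among the calls, but the list was drawn up with earlier results of these data known and holds Trim9, Nrcam, Brinp1, Frmpd4 and Lrrn2 for that reason, so its count supports nothing. Of 44 tested genes of 60 these 5 were called higher and none lower. In all 14 lay above and 7 below both controls, against 21.3% and 13.6% of all genes, with a median of 0.27.

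Markers of other cell types were followed because the sort could hold such cells. Of 10 tested adipocyte markers, Lep among them, 7 lay above both controls and 1 below, against 21.3% and 13.6% of all genes. Their median was 0.84, with summed log2 levels of 77.7 and 78.9 in control and 92.9 and 88.7 in Ovx cells. Aqp7, a glycerol channel, read 5.69 and 7.33 against 9.01 and 8.09 (adjusted p = 0.381), Car3, a carbonic anhydrase abundant in fat, 5.91 and 6.46 against 7.71 and 7.45, and Adipoq, adiponectin, 6.35 and 6.21 against 8.24 and 6.88. Of these, Lep alone was called. The defining fat cell genes Fabp4, Plin1, Cidec and Retn were below the detection filter, with Acvr1c and Pck1, and 4 of the 10 tested markers were detected on all 6 arrays. The part of adipocyte RNA in the result was not tested.

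Endothelial and pericyte markers were higher in replicate 1 than in replicate 2 of both groups. The summed level of 15 tested endothelial markers, all detected on all 6 arrays in spite of the CD31 gate, was 167 and 152 in control and 178 and 157 in Ovx cells. Only 2 of the 15 lay above both controls and none below (13.3% and 0%, against 21.3% and 13.6% of all genes). They were the transcription factor Sox18 and the receptor Tie1 (log2 changes 1.24 and 0.90). The pericyte marker Mcam read 11.67 and 10.16 against 13.49 and 12.65 (2.16, adjusted p = 0.281) and Abcc9 6.71 and 6.42 against 7.91 and 7.34. Immune markers summed to 76.6 and 83.1 against 89.9 and 83.2 over 11 tested genes of 22, with Ptprc, the CD45 gene, below the filter. Of the 11, 2 lay above both controls, Cd52 (1.54) and Adgre1 (1.30), and 1 below, C1qa (−0.48). These shares, 18.2% and 9.09%, were under those of all genes. Red blood cell markers summed to 27.0 and 28.8 against 31.2 and 30.9 over 4 tested genes, with Hba-a1 at 8.83 and 10.68 against 11.35 and 11.61. Fibroblast markers (152 and 164 against 154 and 160), Schwann cell markers (50.9 and 49.7 against 50.002 and 49.7) and skeletal muscle markers (130 and 111 against 130 and 116) overlapped. None of these lists held a called gene, and their part in the changes of other genes was not tested.

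Set beside the luminal fraction, several of the changes had a counterpart. Csn2 fell by 6.24 in luminal cells (adjusted p = 0.0373), from 14.93 and 14.59 to 7.45 and 9.60, and Brinp1 rose by 2.99 (adjusted p = 0.0277), from 5.03 and 5.09 to 8.01 and 8.09. Bcl2l15 (log2 change −4.34, adjusted p = 0.0378) and Saa1 (−4.94, adjusted p = 0.0373) passed in luminal cells and missed the threshold in MaSC-enriched cells, and the difference between fractions passed for neither. Trim9 and Nrcam had luminal changes of −0.15 and −0.56, and Lep read 5.33 and 5.37 in control against 5.39 and 5.30 in Ovx luminal cells. Of the 16 called probes 3 were called in luminal cells, those of Csn2 and Brinp1 and the lower probe without a symbol. The sign was the same for 10 of the 16, but without a share over all probes this count supports nothing. Some of these luminal changes were small, at 0.14 for Wfikkn2 and 0.016 for 1 probe without a symbol. In the test of the difference between fractions none of the 16 passed (0 of 20995 probes tested, 0%), and the smallest adjusted p among them was 0.0557. Although 14 of them had an unadjusted p under 0.05, they were chosen by their MaSC-enriched change. That change is part of the difference, so the count of 14 supports nothing. Which of the changes are particular to MaSC-enriched cells was therefore not resolved by these 8 samples.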

How the data were processed

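RNA of sorted mammary cells was hybridised to Illumina beadchips, and RNA of a separate mouse pool is a replicate. Per the file headers, the deposited non-normalized table pairs each array's bead intensity with its detection p-value, for 45281 probes and 12 arrays. Array minima of 80.3 to 100.1 show intensities without background subtraction. A deposited table of normalized values fits a log2 scale (array medians 6.22 to 6.23) and was an alternative. BeadStudio and limma are named, without a version, in the submitters' processing notes.

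In limma 3.58.1 (R 4.3.3), neqc took the background from the detection p-values, in place of control probes, and gave quantile normalized log2 values with an offset of 16. Arrays of an RNA were averaged, and probes detected (mean detection p under 0.05) in 2 or more of 8 samples were kept. A mean per group was fitted (lmFit, eBayes; 4 residual and 3.22 prior degrees of freedom), with two-sided tests adjusted by Benjamini-Hochberg over the 20995 kept probes at 0.05. The number of arrays limits the precision. A fold written "at least" sets the dim group's arrays to their detection floor where none of them detected the probe. Of all probes 34885 carry 1 symbol in the platform annotation, 18 several and 10378 none. Promoters come from RefSeq's GRCm38.p6 table.

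Named genes are all called genes; per direction the 15 with the smallest p and the 15 with the widest gap among non-overlapping genes; 4 members of each of 36 lists (788 genes, 606 tested) by p; and 20 markers, of which Prlr and Mki67 had no probe. The members and lists were chosen with earlier results of these data known. Lists are described by counts and medians, without a test. The fit was tested on simulated data. Alternatives were other offsets, background corrections, scalings, filters, fits and blocks, and leaving out samples.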

Additional observations from a re-analysis of the deposited data

How the results depend on the processing

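Each result was recomputed under the alternatives, most of which changed the number of calls. The 16 calls (14 higher, 2 lower) became 4 lower with an offset of 50, with the deposited values and with trend and robust settings, 6 lower without background correction, 26 (5 lower) without a filter, 44 (31 and 13) with a stricter one, 5 (5 and 0) with array weights, 115 (66 and 49) with 12 arrays and RNA as a random block, 81 (51 and 30) with the beadchip as a further block, and 0 with scaling of array medians, with MaSC-enriched samples alone and within beadchip 1. Control and Ovx samples share replicate numbers but no pool; same-numbered samples deviated together (r = 0.587 across probes), and with the replicate block 36 probes passed, 15 of them lower. The fits that leave out a sample gave 0 to 583 calls, 0 to 139 higher and 0 to 444 lower, the latter without control replicate 2, and 410 without that whole pool. The difference between fractions, 0 among the called probes, passed for 2 of them with an offset of 50, no background correction, deposited values, the stricter filter, array weights or the pool as a random block, for 1 without a filter, and for 10 and 6 with 12 arrays.

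List medians moved as follows. The milk median was −0.54 under scaling of array medians, −0.83 with the mean of a gene's probes and −1.55 to −0.18 over the samples left out. The contractile median was 0.41 without background correction, 1.36 under scaling and 0.43 to 0.69 over the samples left out. For basement membrane it was −0.30 without background correction, 0.31 under scaling, −0.38 within beadchip 1 and −0.48 to −0.25 over the samples left out.

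Among 148 named genes 13 changed sign at least once, none of them a called gene. Scaling turned Acta2 (0.93), Lamc1 (0.25), Col4a5 (0.27), Krt14 (0.83), Cd44 (0.087), Csn3 (0.69), Col4a1 (0.060), Stat5a (0.22) and Socs2 (0.15), but it moved the median of all probes to 0.61, and relative to that median 6 of these 9 kept their sign, the exceptions being Acta2 (0.32), Krt14 (0.22) and Csn3 (0.086). The mean of probes turned Acta2 (0.46) and Tpm2 (−0.00712), and beadchip 1 turned Pcna (−0.00133). Over the samples left out, Krt14 ran from −0.34 to 0.071, Pcna from −0.80 to 0.88, Csn3 from −0.77 to 0.26, Pgr from −0.33 to 0.18, Axin2 from −0.060 to 0.42 and Acta2 from −0.062 to 0.013. The cause of the other sign changes was not tested. The higher detection floor of control replicate 1 limits what can be said of dim genes there.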

Other observations

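Gene groups next to those already described can be compared with all genes, of which 21.3% lay above and 13.6% below both controls. Of 9 tested prolactin and Stat5 signalling genes 2 lay above and 2 below both controls and none passed, with a median log2 change of 0.03. Stat5a read 8.79 and 9.52 in control and 8.74 and 8.58 in Ovx cells, the feedback inhibitor Socs2 11.76 and 12.41 against 11.17 and 11.65, and its relative Cish 13.64 and 12.25 against 13.51 and 13.90. Elf5, a regulator of milk-producing luminal cells, read 11.84 and 10.17 against 10.43 and 8.48. Both Stat5a and Socs2 turned positive under scaling of array medians, at −0.39 and −0.46 relative to all probes.

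Of 27 tested interferon response genes 7 lay above and 1 below both controls, with a median of 0.09. Irf1, an interferon-induced transcription factor, read 14.61 and 13.78 in control and 14.96 and 15.16 in Ovx cells, and its 4 dimmer probes were higher as well (log2 changes 1.27, 1.89, 1.98 and 2.27), though none passed. The guanylate-binding protein gene Gbp2 read 11.86 and 11.89 against 12.40 and 12.42. Among 21 fatty acid and milk fat synthesis genes, 3 above and 5 below, the phosphatidate phosphatase gene Lpin1 read 9.83 and 8.10 against 7.52 and 7.44. Of 12 cyclins and inhibitors 1 lay above and 3 below, and the inhibitor Cdkn1a read 13.77 and 12.90 against 13.98 and 14.20.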
